A study of Mus musculus with 12 samples.

Results

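The experiment described here set colonoids that received IL-1b and IL-22 together against colonoids that received neither cytokine, across all genes counted. Its members were taken by label from a series of 12 libraries: the 3 libraries of the IL-1b+IL-22 group and the 3 of the unstimulated group. Colonoids are epithelial spheres grown in Matrigel from isolated colonic crypts, here from C57BL/6 mice, in medium with EGF and L-WRN conditioned medium, which supplies Wnt3a, R-spondin and noggin. Both groups shared that strain and medium, and the labels give no genotype beyond the strain and no age. The stimulated cultures were given mouse cytokines made as recombinant proteins, IL-22 at 1 ng/mL and IL-1b at 100 ng/mL, for 12 h. For the unstimulated cultures the labels give neither a vehicle nor a time, so a difference between the groups may hold either. The other 6 libraries, 3 with IL-22 alone and 3 with IL-1b alone at the same doses and time, entered the shared estimate of the spread and are used for placement near the end. Of 35869 gene symbols in the count table, 13987 passed the expression filter and were tested.

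IL-22, a cytokine of innate and T lymphocytes, acts on epithelium through a receptor of IL22RA1 and IL10RB, the kinases JAK1 and TYK2 and the transcription factor STAT3, and is known in the colon for antimicrobial proteins, acute-phase proteins and the fucosylation of surface glycans. IL-1b binds IL1R1 with IL1RAP and signals through MYD88, IRAK kinases and TRAF6 to NF-kB and AP-1, which drive chemokine and inflammatory genes. The present comparison shows the state of the epithelium under both signals.

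Library totals were 5225101 to 5559622 counts in unstimulated cultures and 4703902 to 5262713 with both cytokines, and 3 counts stood for 0.535 to 0.644 CPM (counts scaled to a library total of 1000000) in a single library. Whether replicates are separate animals or cultures is not in the labels, so the p-values reflect the spread between these libraries alone, which may be technical. Epithelial markers were high in all 6 libraries, with Epcam at 261 to 295 CPM and Cdh1 at 537 to 567. In bulk RNA, fewer cells of a type and less RNA per cell cannot be told apart. Counts of abundant genes levelled off (Rps29, for example, had 177 to 193 counts in every library of the series, less spread than counting noise gives), so their changes may be compressed. Fold changes also followed the count per exon base: their median log2 value was -0.19 over 3198 genes under 0.02 counts per base and 0.12 over 445 genes at 0.4 or more. Below, single values of a group are given in the order of replicates 1, 2 and 3 in CPM, fold changes are log2 values ± standard error with n = 3 per group, and "rose" and "fell" mark genes with a p under 0.05 in edgeR's quasi-likelihood test after Benjamini-Hochberg adjustment over all tested genes.

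Both cytokines together changed a large share of the genes expressed by the colonoids. In all 3783 genes changed, 27% of those tested: 1920 rose (13.7%) and 1863 fell (13.3%). Most changes were small, with a median size of 0.47 among the genes that changed, and only 326 rose and 503 fell by at least 2-fold. After removal of the count-per-base trend 372 rose and 357 fell by as much, so the excess of falls at that size depended on the processing. At 4-fold or more 108 genes were higher and 85 lower, and at 8-fold or more 44 were higher and 20 lower. The first principal component of the 6 libraries held 62.7% of the variance and separated the groups, and the second, with 13.6%, lay within them. Scaling by total counts alone turned the split to 1495 higher and 2262 lower, 39.8% higher against 50.8%, with the median of all genes at -0.04 instead of 0.00.

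**Figure D1:**
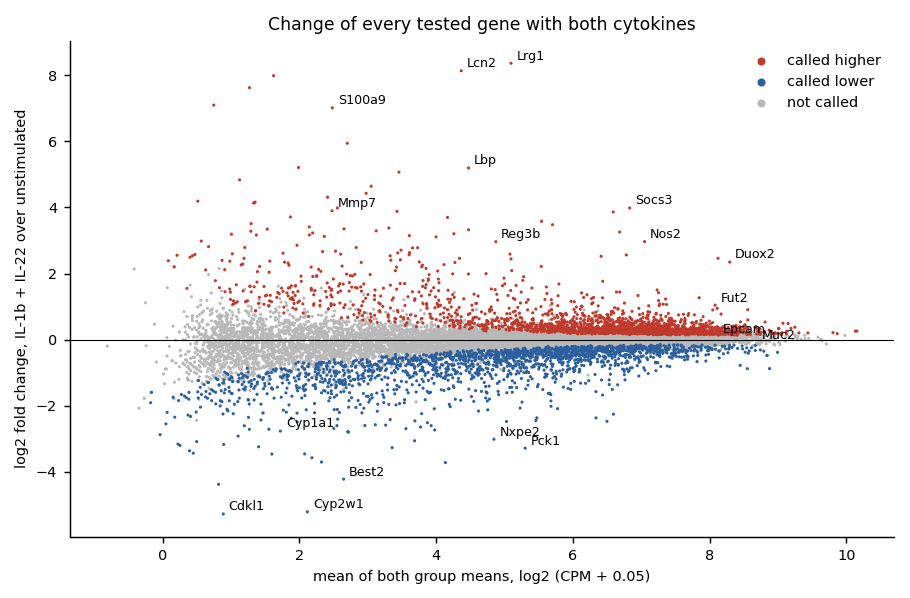
Log2 fold change with IL-1b + IL-22 over unstimulated (vertical axis) against the mean of both group means in log2 (CPM + 0.05) (horizontal axis), for each of the 13987 genes tested. Red points are the 1920 genes called higher, blue points the 1863 called lower and grey points the rest, and the largest changes lie at low and middle levels while the most abundant genes stay near 0.

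Among the largest rises were secreted defence and acute-phase genes together with genes better known from muscle. Lrg1, which encodes an acute-phase glycoprotein (mm10 chr17:56119678-56122001, minus strand), had 2, 0 and 1 counts in the unstimulated libraries and 384, 311 and 307 with both cytokines, a ratio of 372 (95% counting interval 127 to 1806; edgeR adjusted p = 9.95e-09). Lcn2, which encodes the siderophore-binding lipocalin 2 (chr2:32384633-32388252, minus strand), had 0, 0 and 2 counts against 234, 160 and 208, a ratio of 335 (92.3 to 2773; adjusted p = 2.63e-08). S100a9, a subunit of the zinc- and calcium-binding calprotectin, had 1, 0 and 0 counts against 44, 38 and 78, a ratio of 178 (31.5 to 7078). The stimulated values of these 3 genes stood far above a baseline of almost no counts. The ratios therefore move with single baseline counts: that of Lrg1 was 733 without unstimulated replicate 1 and 247 without replicate 2, that of Lcn2 was 220 and 223 in the same order and at least 152 without replicate 3, and that of S100a9 was 118 without replicate 2 and 121 without replicate 3 and at least 39.0 without replicate 1.

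S100a8, the other calprotectin subunit, was without counts in the unstimulated libraries and had 14, 24 and 31 with both cytokines, at least 25.6-fold higher taking 3 counts over the unstimulated group as the floor. Lbp, which encodes the lipopolysaccharide-binding protein, rose from 1.43, 1.09 and 0.948 CPM to 45.8, 43.5 and 40.3, a change of 5.19 ± 0.23 (edgeR adjusted p = 4.78e-09). Ltf, which encodes the iron-binding lactoferrin, rose from 0.534, 0.546 and 0.759 to 12.9, 24.9 and 26.0 (5.07 ± 0.40), and its stimulated replicate 1 stood below the other two. The secreted phospholipase gene Pla2g2a had 0, 1 and 2 counts against 39, 32 and 41 (ratio 41.6, 13.9 to 205), although GENCODE lists it as a polymorphic pseudogene in the mouse reference, and that ratio was 84.5 without unstimulated replicate 3 and 27.3 without replicate 1. The membrane-anchored serine protease gene Prss27 rose from 0.356, 0.546 and 0.948 CPM to 14.7, 13.5 and 19.3 (4.64 ± 0.37). Trim10, a tripartite motif gene, had 0, 3 and 0 counts against 44, 64 and 78, a ratio of 69.0 (23.2 to 338) that was 45.4 and 46.8 without unstimulated replicates 1 and 3. Myl1, a myosin light chain gene of skeletal muscle, went from no count to 32, 27 and 30, and Myot, which encodes the Z-disc protein myotilin, from 0, 2 and 0 to 19, 22 and 20 (ratio 33.9, and 22.3 without unstimulated replicate 1). The largest changes were picked among genes whose groups did not overlap, so the separation in these genes follows from that choice. Over all genes that rose, 1861 of 1920 had groups that did not overlap, and over those that fell 1787 of 1863. The calls were made on the same values, so these counts largely follow from the calls and add no support. The share over all tested genes is not given here.

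**Figure D2:**
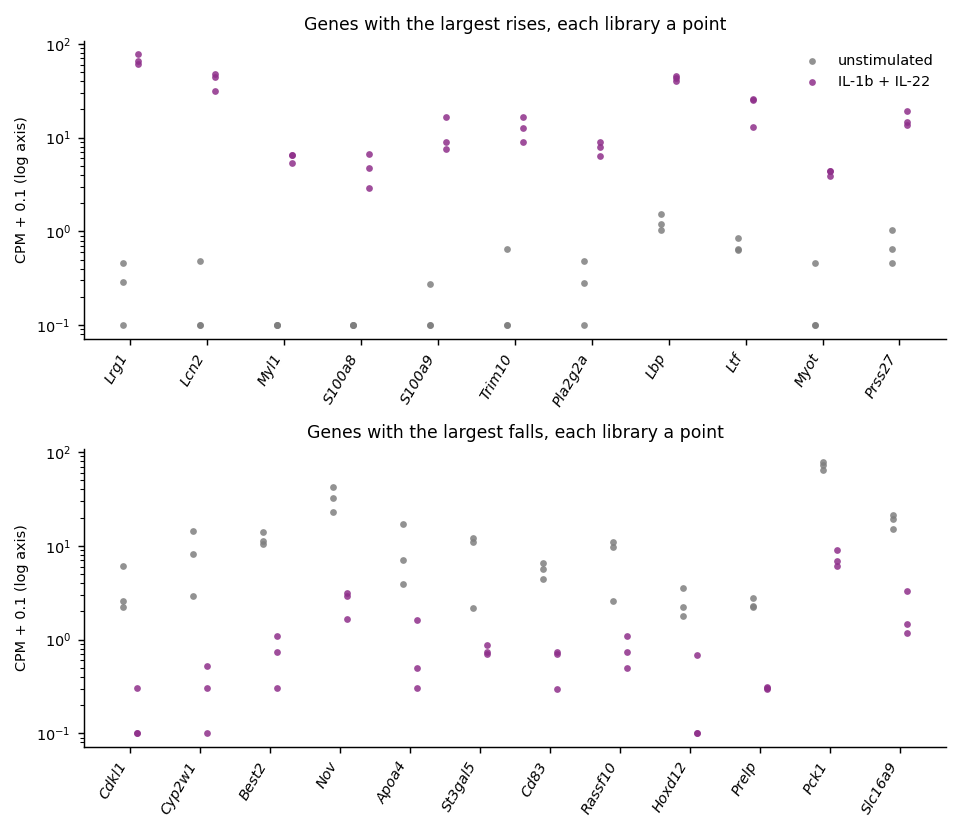
CPM + 0.1 on a log axis for 11 of the genes with the largest rises (upper panel) and the 12 with the largest falls (lower panel), with each of the 3 unstimulated libraries as a grey point and each of the 3 libraries with IL-1b + IL-22 as a purple point. Genes were picked only where the groups do not overlap, and the floor at 0.1 marks libraries with no count.

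Sequence upstream of the start was read for genes of both signalling arms, to show which of them carry letters that STAT or NF-kB factors are known to bind. The RefSeq tables (GRCm38.p6) gave a window of 300 bases, 250 before and 50 after the start, for 10340 of the genes tested. A STAT-type match, TTCNNNGAA on either strand, was found in 7.07% of these windows, in 8.42% of the genes that rose and in 5.24% of those that fell, and in 11.1% of the 244 genes that rose by at least 2-fold against 4.83% of the 352 that fell by as much. The NF-kB consensus was searched as GGGRNWYYCC on either strand, where R is A or G, N any base, W A or T, and Y C or T. A match to it was found in 4.94% of all windows, 6.4% of the genes that rose and 4.38% of those that fell. At 2-fold or more it was found in 7.79% of the genes that rose and 5.11% of those that fell. Among the 12 largest rises, 8 had a window and none of these held either motif. The upstream stretches of 4 genes that rose are shown without bases of any annotated exon, each 5′ to 3′ in the direction of the gene, with the matched letters in capitals: the STAT-type match in Socs3 and Icam1, and 2 overlapping NF-kB matches each in Cxcl1 and Cxcl2.
Socs3, chr11:117969452-117969616, minus strand: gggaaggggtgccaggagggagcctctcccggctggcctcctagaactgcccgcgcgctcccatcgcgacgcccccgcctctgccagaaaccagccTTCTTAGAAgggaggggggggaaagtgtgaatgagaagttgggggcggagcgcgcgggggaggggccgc
Icam1, chr9:21015690-21015939, plus strand: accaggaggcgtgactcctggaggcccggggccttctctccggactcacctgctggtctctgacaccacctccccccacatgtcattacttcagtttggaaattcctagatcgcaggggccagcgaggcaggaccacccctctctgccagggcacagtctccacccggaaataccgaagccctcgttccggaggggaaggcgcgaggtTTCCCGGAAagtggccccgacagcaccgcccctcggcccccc
Cxcl1, chr5:90890995-90891240, plus strand: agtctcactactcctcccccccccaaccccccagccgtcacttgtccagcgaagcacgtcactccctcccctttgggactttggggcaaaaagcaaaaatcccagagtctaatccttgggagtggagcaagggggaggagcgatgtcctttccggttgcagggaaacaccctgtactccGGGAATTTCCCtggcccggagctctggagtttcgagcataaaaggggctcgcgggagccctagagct
Cxcl2, chr5:90903649-90903870, plus strand: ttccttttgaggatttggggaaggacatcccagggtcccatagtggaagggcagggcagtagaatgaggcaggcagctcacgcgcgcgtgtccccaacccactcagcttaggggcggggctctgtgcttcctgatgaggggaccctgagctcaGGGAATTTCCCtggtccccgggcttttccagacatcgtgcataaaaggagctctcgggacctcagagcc
The Socs3 match began 154 bases before the RefSeq start and that of Icam1 42 bases before it, and the first NF-kB matches began 71 bases before the start of Cxcl1 and 97 before that of Cxcl2. The capitals of Cxcl1 and Cxcl2 spell the same 11 letters. The Icam1 stretch also holds tggaaattcc, which differs from the NF-kB pattern only in its first letter and was not counted. The lack of a counted match there therefore does not mean that NF-kB factors cannot bind. Genes that fell held such matches as well, for example 2 to NF-kB in Cxcl10. Tnip1 held 1 of STAT type and 3 to NF-kB, which overlap in a single stretch. These are matches of letters, and binding was not measured.

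The STAT3 arm was raised at its feedback inhibitor, at cytokine receptors and at STAT3 itself. Socs3, which encodes the inhibitor that binds the shared receptor gp130 and JAK kinases (chr11:117966079-117970047, minus strand), rose from 19.1, 13.8 and 7.4 CPM to 205, 220 and 217, a change of 3.98 ± 0.16 (edgeR adjusted p = 2.14e-09). The stimulated libraries were close together and far above the unstimulated ones, of which replicate 3 was the lowest. Osmr, which encodes the oncostatin M receptor, rose from 0.534, 0.364 and 1.14 to 19.0, 9.21 and 16.7 (4.43 ± 0.54), Il4ra, a receptor chain for IL-4 and IL-13, from 59.7, 54.7 and 51.8 to 140, 151 and 160 (1.44 ± 0.07), and the kinase gene Pim3 from 49.5, 44.6 and 43.8 to 109, 106 and 112 (1.24 ± 0.06). Of 22 SOCS and other STAT3 response genes tested, 12 rose and 1 fell, with a median of 0.25 against 0.00 over all genes. The member that fell was Cish (-0.75 ± 0.12), the SOCS family gene best known as a STAT5 target. Of 16 IL-22 receptor and JAK-STAT genes, 4 rose and 2 fell (median 0.04): Jak3 rose by 1.12 ± 0.12, Stat3 by 0.51 ± 0.07, Ptpn2 by 0.33 ± 0.06 and Stat6 by 0.30 ± 0.06, and Stat5b fell by 0.42 (± 0.10, with an adjusted p of 0.0502 without stimulated replicate 3). The fall of Stat5a (-0.45 ± 0.16) was not called by DESeq2 or without each single library other than stimulated replicate 2 (adjusted p from 0.0568 to 0.195 in those 5). The receptor chains themselves stood at -0.05 ± 0.07 for Il22ra1 and 0.01 ± 0.06 for Il10rb and did not pass the test.

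Among genes of the IL-1 pathway the adaptors rose slightly and the receptor was lower. Of 20 IL-1 receptor and proximal signalling genes, 7 rose and 3 fell (median 0.09). The adaptor gene Myd88 rose from 52.6, 52.9 and 49.9 CPM to 62.4, 75.1 and 62.9 (0.37 ± 0.08), the ubiquitin ligase gene Traf6 by 0.44 ± 0.07, Irak4 by 0.38 ± 0.07 and the IkB kinase gene Ikbkb by 0.37 ± 0.06, while Ikbkg, the regulatory subunit of that kinase, fell by 0.29 (± 0.07). Il1r1, the signalling receptor, fell from 16.2, 13.5 and 9.29 to 6.46, 4.12 and 7.29 (-1.13 ± 0.33, adjusted p = 0.0208), which no longer passed without unstimulated replicate 1 (adjusted p = 0.0851) or 2 (0.0572) or stimulated replicate 2 (0.0758). Its partner gene Il1rap, at -0.34 ± 0.16, was not called.

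More NF-kB genes rose than fell. Of 28 NF-kB subunits, feedback and target genes, 16 rose and 2 fell (median 0.36). The adhesion gene Icam1 rose from 0.356, 0.364 and 0.948 CPM to 3.43, 4.12 and 4.29 (2.79 ± 0.42, adjusted p = 0.000254). The subunit gene Rel rose from 11.9, 10.0 and 10.6 to 19.0, 24.3 and 21.9 (1.00 ± 0.17), the A20-binding inhibitor gene Tnip2 from 13.5, 14 and 13.3 to 28.2, 24.5 and 27.5 (0.97 ± 0.12), the inflammatory caspase gene Casp4 from 42.4, 48.6 and 52.1 to 94.4, 82.7 and 93.5 (0.92 ± 0.11), and Nfkbia, which encodes IkB alpha, from 99.1, 89.8 and 91.8 to 132, 132 and 138 (0.52 ± 0.08). All of these groups were apart from each other. Tnfaip2 stood at 7.48, 4.18 and 11.8 against 12.3, 14.3 and 43.3, so that its change of 1.57 ± 0.43 (adjusted p = 0.0157) rested on stimulated replicate 3, and without that library it was 0.77 (adjusted p = 0.0988), and it was also not called without unstimulated replicate 1 (0.0507) or 2 (0.0706). Tnip1 fell by 0.40 (± 0.09), and the fall of Relb (-0.26 ± 0.08) was not called without unstimulated replicate 2 or 3 or stimulated replicate 1 or 3 (adjusted p from 0.0620 to 0.112). Of 23 AP-1 and immediate early genes, 9 rose and 1 fell (median 0.21), led by Klf10 (0.63 ± 0.07), Ier3 (0.58 ± 0.10) and the phosphatase gene Dusp1 (0.45 ± 0.09), and 5 remained higher after removal of the count-per-base trend.

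**Figure D3:**
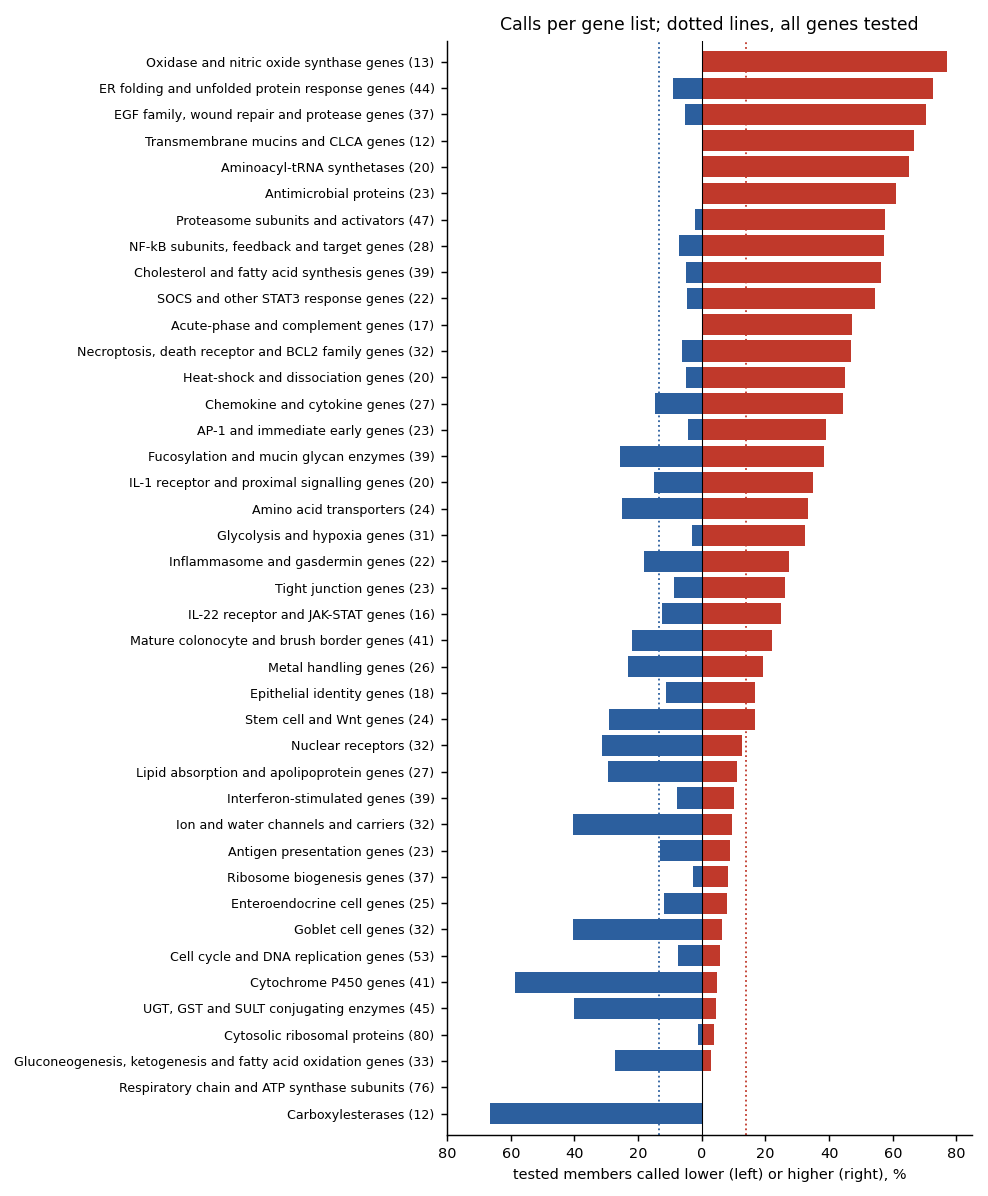
Share of tested members called higher (red, to the right) or lower (blue, to the left) with IL-1b + IL-22 for each gene list with at least 10 tested members, whose number stands in brackets. The dotted lines mark the shares over all genes tested, 13.7% higher and 13.3% lower, and oxidase genes lead the upper end while carboxylesterases and P450 genes have the longest bars to the left.

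Secreted antimicrobial proteins were raised as a group. Of 23 tested, 14 rose (median 0.39 and up to 8.13), with 0 lower by edgeR, 0 by DESeq2 and 0 at an unadjusted p under 0.05, though 2 were lower after removal of the count-per-base trend. Beside those above, the resistin-like gene Retnlb, whose product acts on Gram-negative bacteria, rose from 1.43, 1.64 and 0.190 CPM to 10.5, 12.4 and 11.4 (3.35 ± 0.59). The C-type lectin genes Reg3b and Reg3g depended on the baseline library. Reg3b stood at 19.4, 0.182 and 0 CPM in unstimulated libraries and 53.5, 54.3 and 48.3 with both cytokines (2.96 ± 0.66, adjusted p = 0.00445), and Reg3g at 7.48, 0 and 0 against 46.4, 23.1 and 30.5 (3.70 ± 0.66, adjusted p = 0.00101). Unstimulated replicate 1 alone carried almost all of the baseline of Reg3b and Reg3g, and without it both remained called (adjusted p = 1.98e-07 and 6.48e-06) with fitted changes of 8.80 and 10.4, which rest on 1 and 0 unstimulated counts and are no bound, while DESeq2 on all libraries called neither (adjusted p = 0.145 and 0.0690). Of 17 acute-phase and complement genes, 8 rose (median 0.33). The complement gene C3 rose from 42.8, 26.6 and 26.0 CPM to 193, 189 and 182 (2.56 ± 0.19, adjusted p = 6.61e-07), and its stimulated libraries were close together. The serum amyloid genes Saa3 and Saa1 rose from 21.4, 23.8 and 3.79 to 79.5, 72.3 and 77.7 (2.21 ± 0.31) and from 95.9, 110 and 117 to 136, 134 and 135 (0.33 ± 0.08).

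Most genes for the production of hydrogen peroxide and nitric oxide rose. Of 13 tested, 10 rose (median 0.47) by edgeR and 8 by DESeq2, and 0 were lower by either. At an unadjusted p under 0.05 in edgeR 2 were lower, and up to 2 were called lower under other alternatives (2 with total counts). Nos2, the inducible nitric oxide synthase (chr11:78920787-78960254, plus strand), rose from 41.9, 22.2 and 25.8 CPM to 208, 250 and 247 (2.97 ± 0.21, adjusted p = 3.63e-07). The peroxide-producing dual oxidase genes rose together with their maturation factors: Duox2 from 124, 79.8 and 105 to 454, 574 and 546 (2.35 ± 0.13), Duox1 from 2.32, 1.46 and 1.33 to 8.47, 12.7 and 9.87 (2.59 ± 0.27), and Duoxa2 from 26.7, 19.6 and 29.4 to 138, 142 and 155 (2.52 ± 0.15). Duoxa1 rose by 2.40 ± 0.55, on 0 to 1.07 CPM in the unstimulated libraries, and by 3.32 without unstimulated replicate 1. The Duoxa1 and Duoxa2 models share exon bases, so how reads split between them is uncertain.

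Chemokine genes moved in both directions. Among neutrophil-attracting ligands of CXCR2, 3 rose: Cxcl5 from 8.73, 4.0 and 8.72 CPM to 75.7, 64.9 and 117 (3.58 ± 0.36, adjusted p = 1.00e-05), Cxcl1 from 2.50, 2.91 and 4.17 to 18.6, 12.5 and 19.7 (2.40 ± 0.29) and Cxcl2 from 0.713, 0 and 0.759 to 7.06, 4.51 and 8.58 (3.71 ± 0.60). Among lymphocyte-attracting ligands of CXCR3, Cxcl10 and Cxcl11 fell: Cxcl10 from 10.2, 8.37 and 19.5 to 3.23, 3.53 and 3.43 (-1.89 ± 0.32, adjusted p = 0.000690) and Cxcl11 from 3.74, 3.09 and 4.74 to 0.807, 0.196 and 0.858 (-2.61 ± 0.52), although GENCODE lists Cxcl11 as a polymorphic pseudogene in the mouse reference. The groups of Cxcl9 overlapped, and its fall (-1.59 ± 0.53, adjusted p = 0.0375) was not called by DESeq2 (0.0933) or without unstimulated replicate 1 or 3 or stimulated replicate 2 or 3 (0.0829 to 0.143). Of 27 chemokine and cytokine genes, 12 rose and 4 fell (median 0.33). Tnf rose from 12.1, 11.1 and 15.9 to 31.9, 31.2 and 38.6 (1.38 ± 0.14), the epithelial cytokine gene Il18 by 0.40 ± 0.09, and the mucosal chemokine gene Ccl28 fell by 0.35 (± 0.08). Il33, which encodes an alarmin of the IL-1 family, stood at 1.78, 4.18 and 7.21 against 9.28, 8.04 and 50.2, so stimulated replicate 3 carried its change (2.35 ± 0.64), which was 0.99 without that library (adjusted p = 0.117) and 1.97 without unstimulated replicate 1 (0.0620).

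Interferon-stimulated genes had few calls. Of 39 tested, 4 rose and 3 fell (median 0.04), below the shares of all genes, and 2 rose without unstimulated replicate 2 or stimulated replicate 2 or 3. The exception in size was Zbp1, a nucleic acid sensor that can start necroptosis, which rose from 2.14, 2.91 and 5.12 CPM to 21.4, 24.3 and 17.2 (2.63 ± 0.33). The GTPase genes Igtp and Irgm2, which share exon bases, fell by 1.21 (± 0.30) and 0.99 (± 0.21). Of 23 antigen presentation genes 2 rose (8.7%) and 3 fell (13.0%), neither above the shares of all genes (median -0.06). Tap1, a peptide transporter subunit, was the largest of these 5 at -0.53. The 3 falls of that list were not called without unstimulated replicate 2 or stimulated replicate 1 or 3.

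Genes of protein folding, tRNA charging and protein degradation rose in small steps and in large numbers. Of 44 endoplasmic reticulum folding and unfolded protein response genes, 32 rose and 4 fell (median 0.30). The glutathione-degrading stress gene Chac1 rose from 36.0, 40.6 and 31.9 CPM to 72.4, 78.8 and 69.7 (1.03 ± 0.10), Creld2 from 56.0, 56.0 and 59.7 to 94.8, 94.7 and 90.5 (0.71 ± 0.06), the disulfide isomerase gene Pdia6 by 0.70 ± 0.07 and Hspa5, which encodes the chaperone BiP, from 266, 271 and 312 to 375, 369 and 386 (0.41 ± 0.06). The 2 largest falls of that list were goblet cell genes as well, Creb3l1 (-1.05 ± 0.12) and the goblet-cell form of the stress sensor IRE1, Ern2 (-1.02 ± 0.12). Of 20 aminoacyl-tRNA synthetase genes, which charge tRNAs, 13 rose by edgeR and by DESeq2 (median 0.25), led by Rars (0.54 ± 0.06), Tars (0.38 ± 0.05) and Cars (0.37 ± 0.06). Of 47 proteasome genes, 27 rose and 1 fell (median 0.21), with no rise above 0.33. That count depended on settings: it was 13 after removal of the count-per-base trend, 17 with total counts, 15 without unstimulated replicate 1, and 17 and 14 without stimulated replicates 1 and 3.

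Genes of enzymes that build surface glycans moved in both directions. Fut2, which adds the terminal fucose of H antigens, rose from 164, 183 and 184 CPM to 360, 365 and 368 (1.04 ± 0.05, adjusted p = 1.75e-08). C1galt1, which makes the core of mucin O-glycans, rose by 0.48 ± 0.06 and the initiating transferase gene Galnt12 by 0.52 ± 0.07. The sialyltransferase genes St6gal1 and St6galnac4 fell from 36.4, 44.7 and 41.5 to 9.89, 15.9 and 10.1 (-1.77 ± 0.18) and from 72.9, 74.2 and 83.8 to 43.6, 37.0 and 31.3 (-1.04 ± 0.14), and Fut9, which makes Lewis X structures, fell by 1.82 (± 0.36). Of the 39 fucosylation and mucin glycan genes tested, 15 rose and 10 fell (median 0.12).

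Goblet cell genes fell more often than they rose, while the main secreted mucin gene was not called. Of 32 tested, 13 fell and 2 rose (median -0.31). Best2, a bicarbonate channel gene of colonic goblet cells, fell from 11.1, 14 and 10.4 CPM to 0.202, 0.980 and 0.644 (-4.22 ± 0.47, adjusted p = 2.18e-05), and Nxpe2 from 42.8, 55.6 and 55.0 to 7.26, 7.06 and 4.50 (-3.01 ± 0.22). The goblet cell genes Ano7 and Ern2 fell by 1.08 (± 0.15) and 1.02 (± 0.12). Muc2 stood at 444, 422 and 409 against 379, 417 and 395 (-0.10 ± 0.08) and did not pass the test, at a level where counts level off. Transmembrane mucin and CLCA genes went the other way: of 12 tested, 8 rose by edgeR and by DESeq2 (median 0.40). Clca4b, a secreted metalloprotease-like gene of enterocytes (chr3:144910921-144932529, minus strand), rose from 97.8, 63.5 and 95.8 to 490, 440 and 486 (2.46 ± 0.12, adjusted p = 9.95e-09), Muc1 from 7.13, 4.37 and 6.26 to 27.0, 26.1 and 32.8 (2.27 ± 0.21), and the related genes Clca3a2 and Clca3a1 rose by 2.57 ± 0.41 and 2.34 ± 0.29.

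Ion and transport genes showed large falls at a few members. Of 32 ion and water channels and carriers, 13 fell and 3 rose (median -0.15). The calcium channel gene Trpv6 fell from 142, 139 and 198 CPM to 41.0, 31.8 and 27.2 (-2.26 ± 0.21, adjusted p = 5.66e-06), the monocarboxylate transporter gene Slc16a9 from 19.2, 21.3 and 15 to 3.23, 1.37 and 1.07 (-3.27 ± 0.28, and -3.89 without stimulated replicate 1) and the water channel gene Aqp1 from 12.5, 9.09 and 7.96 to 1.21, 1.57 and 2.79 (-2.41 ± 0.44). The epithelial sodium channel subunit genes Scnn1b and Scnn1g fell from 2.67, 3.27 and 3.98 to 0.404, 1.37 and 0.858 (-1.88 ± 0.51) and from 3.03, 2.00 and 1.71 to 0.202, 0.980 and 0.215 (-2.19 ± 0.58). Both calls were marginal without a library: Scnn1b had an adjusted p of 0.0605 without stimulated replicate 1, and Scnn1g 0.0536 without unstimulated replicate 1 and 0.0551 and 0.0563 without stimulated replicates 1 and 3, while its change was -3.29 without stimulated replicate 2. The water channel gene Aqp4 rose by 0.60 ± 0.09 and the potassium channel subunit gene Kcne3 by 0.48 ± 0.10. Of 41 mature colonocyte and brush border genes, 9 rose and 9 fell (median 0.03), or 6 and 14 after removal of the count-per-base trend. Krt20, a keratin of differentiated cells, rose by 0.24 ± 0.06. The colonocyte carbonic anhydrase gene Car1, at 0.08 ± 0.06, was not called.

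Among rare lineages, few enteroendocrine genes were called. Of 25 tested, 2 rose (8.0%) and 3 fell (12.0%), both shares under those of all genes (13.7% and 13.3%), with a median of -0.14. Tac1, the substance P precursor of enterochromaffin cells, rose from 20.3, 24.7 and 34.3 CPM to 82.7, 88.4 and 82.8 (1.68 ± 0.16), while the pan-endocrine factor gene Insm1 fell by 0.73 (± 0.19). Of 5 tuft cell genes tested, 1 rose and 2 fell, and Avil, a gene of the tuft cell cytoskeleton, rose from 1.07, 1.09 and 1.33 to 4.04, 2.74 and 3.0 (1.47 ± 0.35). Both falls among the tuft cell genes were lost without unstimulated replicate 1 or stimulated replicate 2 or 3.

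Stem cell and Wnt genes had more falls than rises, and few proliferation genes were called. Of 24 stem cell and Wnt genes, 7 fell and 4 rose (median -0.17). The telomerase gene Tert fell from 5.17, 6.18 and 5.69 CPM to 1.01, 1.76 and 1.5 (-1.98 ± 0.31), Smoc2 from 13.2, 10.2 and 10.4 to 2.62, 2.94 and 3.86 (-1.84 ± 0.47), and the crypt factor gene Sox9 from 40.1, 30.2 and 40.8 to 22, 17.4 and 19.7 (-0.91 ± 0.17). Ephb2, a crypt guidance receptor, rose by 0.59 ± 0.07 and Ly6a, which encodes the repair-associated antigen Sca-1, from 109, 116 and 128 to 160, 152 and 170 (0.45 ± 0.08). Lgr5 was near the detection limit, at 4.99, 1.46 and 0.948 against 0.807, 0.588 and 3.43, and was not called. Of 53 cell cycle and DNA replication genes, 3 rose and 4 fell (median -0.01), both shares under those of all genes. Mki67 stood at 183, 178 and 202 against 195, 177 and 187 (-0.01 ± 0.15) and was not called. Ccnd1 rose by 0.60 ± 0.13 and E2f2 by 0.71 ± 0.06, and Ccnd2 fell by 0.28 (± 0.06). The number of falls in that list was 1 without unstimulated replicate 2 or 3 or stimulated replicate 3.

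Genes of wound repair and pericellular proteolysis rose widely. Of 37 EGF family, wound repair and protease genes tested, 26 rose and 2 fell (median 0.36), and 17 rose without unstimulated replicate 2 or stimulated replicate 3. The matrix metalloproteinase gene Mmp7, whose product activates alpha-defensins in the small intestine, rose from 1.07, 0.364 and 0.569 CPM to 13.7, 6.47 and 10.9 (3.90 ± 0.48), and the serine protease gene Prss22 from 2.50, 2.55 and 7.02 to 10.3, 14.1 and 26.8 (2.09 ± 0.47, and 2.74 without unstimulated replicate 3). Mmp15, a membrane-anchored member of the same family, fell by 0.40 (± 0.06). Of 23 tight junction genes, 6 rose and 2 fell (median 0.10), with the barrier-forming claudin gene Cldn8 at 0.60 ± 0.10 and Cldn12 at 0.26 ± 0.05, and 3 rose without unstimulated replicate 2 or after removal of the count-per-base trend, while 0 fell without unstimulated replicate 1 or 2 or stimulated replicate 1.

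Genes of necroptosis were among those that rose. Ripk3, the kinase at the centre of necroptosis, rose from 92.1, 84.2 and 96.7 CPM to 182, 182 and 191 (1.02 ± 0.07, adjusted p = 3.64e-07), and Mlkl, which encodes the pore-forming effector, from 55.8, 57.1 and 61.5 to 101, 100 and 109 (0.83 ± 0.07). Bcl2l15, a BCL2 family gene of the gut, rose from 5.88, 2.91 and 3.22 to 31.9, 58.2 and 31.1 (3.32 ± 0.33), while Bcl2 itself fell from 10.7, 7.28 and 6.45 to 2.42, 2.94 and 4.72 (-1.28 ± 0.31) and the pro-apoptotic gene Bcl2l11 by 0.67 (± 0.13). Of 32 necroptosis, death receptor and BCL2 family genes, 15 rose and 2 fell (median 0.20). Of 22 inflammasome and gasdermin genes, 6 rose and 4 fell (median 0.07). Il18bp, the decoy receptor of IL-18, rose from 5.35, 5.09 and 5.12 to 13.1, 13.3 and 12.4 (1.32 ± 0.17) and the flagellin-sensing inflammasome gene Nlrc4 by 0.49 ± 0.08, while the gasdermin genes Gsdmc2 and Gsdmc3, close paralogs, fell by 1.06 (± 0.12) and 1.05 (± 0.12).

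The 12 largest falls were of mixed function. Cdkl1, a cyclin-dependent kinase-like gene, went from 12, 33 and 13 counts to 1, 0 and 0, a ratio of 0.0192 (0.000478 to 0.111). That ratio was 0.0296 without unstimulated replicate 2 and 0.0294 and 0.0281 without stimulated replicates 2 and 3, and without stimulated replicate 1 the gene was at least 11.5-fold lower. Cyp2w1, a P450 of fetal colon, went from 80, 44 and 15 counts to 1, 0 and 2, a ratio of 0.0240 (0.00489 to 0.0717), and unstimulated replicate 3 stood well below the other two. It was 0.0372 without unstimulated replicate 1 and 0.0368 and 0.0117 without stimulated replicates 2 and 3. The matricellular gene Nov fell from 22.8, 32.2 and 42.9 CPM to 3.03, 1.57 and 2.79 (-3.72 ± 0.32), the ganglioside GM3 synthase gene St3gal5 from 11.9, 10.9 and 2.09 to 0.605, 0.784 and 0.644 (-3.58 ± 0.64), Cd83, known from dendritic cells, from 5.52, 6.55 and 4.36 to 0.605, 0.196 and 0.644 (-3.46 ± 0.40), and Rassf10 from 9.62, 10.9 and 2.46 to 0.404, 0.980 and 0.644 (-3.46 ± 0.59). The posterior Hox gene Hoxd12 went from 12, 19 and 9 counts to 0, 3 and 0 (ratio 0.0835, 0.0165 to 0.262, and at least 7.83-fold lower without stimulated replicate 2, which held all 3 counts), and its neighbour Hoxd13 fell from 79.5, 64.6 and 70.5 CPM to 39.5, 41.8 and 28.3 (-0.96 ± 0.13). The matrix proteoglycan gene Prelp had 12, 12 and 14 counts against 1 in each stimulated library. Groups apart from each other were a condition for the 12 largest falls, and those of Hoxd13, named beside them, were apart as well.

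Pck1, the rate-limiting enzyme of gluconeogenesis (chr2:173153048-173159273, plus strand), fell with other genes of fuel use in the fasted state. It went from 72.7, 77.7 and 64.3 CPM to 6.86, 9.02 and 6.01 (-3.28 ± 0.22, adjusted p = 2.18e-07). Angptl4, an inhibitor of lipoprotein lipase, fell from 10.2, 6.18 and 8.72 to 1.82, 2.16 and 3.43 (-1.76 ± 0.29) and Cpt1a, which controls fatty acid entry into mitochondria, by 0.46 (± 0.08). Of 33 gluconeogenesis, ketogenesis and fatty acid oxidation genes, 9 fell and 1 rose (median -0.06). The number that fell was 14 after removal of the count-per-base trend and 5 without unstimulated replicate 2 or stimulated replicate 3. The fatty acid receptor gene Ppara fell from 55.6, 48.7 and 30.1 to 12.7, 21.4 and 11.2 (-1.56 ± 0.25) and the coactivator gene Ppargc1a from 127, 118 and 115 to 59.7, 52.7 and 41.4 (-1.22 ± 0.14). Of 32 nuclear receptor and partner genes, 10 fell and 4 rose (median -0.13), and the rises held Ahrr, the repressor of the aryl hydrocarbon receptor, from 0.713, 1.09 and 0.948 to 3.63, 5.49 and 3.86 (2.21 ± 0.36), and the bile acid receptor gene Nr1h4 (0.58 ± 0.06).

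Genes that metabolise foreign compounds fell in families. Of 93 cytochrome P450 genes listed, 41 were tested, and 24 fell and 2 rose (median -0.70). Cyp1a1, the classic target of the aryl hydrocarbon receptor, fell from 5.88, 4.18 and 7.02 CPM to 1.21, 0.784 and 0.429 (-2.77 ± 0.46), and Cyp2f2 from 72.5, 80.8 and 69.8 to 13.7, 17.1 and 9.87 (-2.45 ± 0.21). Of 19 carboxylesterase genes, which cleave esters of drugs and lipids, 12 were tested and 8 fell (median -1.20), with 0 higher by edgeR, by DESeq2 and at an unadjusted p under 0.05. Ces2b fell from 70.0, 97.1 and 73.8 to 24.4, 24.5 and 17.4 (-1.86 ± 0.16), Ces1e from 38.3, 39.1 and 29.0 to 11.1, 12.3 and 13.1 (-1.54 ± 0.16) and Ces1g from 70.9, 83.5 and 26.2 to 18.8, 18.4 and 11.4 (-1.89 ± 0.34), with unstimulated replicate 3 the lowest of its group for Ces1g as it was for Cyp2w1. Of 65 conjugating enzyme genes, 45 were tested, and 18 fell and 2 rose (median -0.15), or 11 fell without stimulated replicate 3. Within them the glutathione transferase genes Gstm3 and Gstm7 fell from 85.7, 86.8 and 82.3 to 35.1, 30.2 and 28.8 (-1.44 ± 0.09, adjusted p = 1.19e-07) and from 15, 16.2 and 16.9 to 6.86, 5.10 and 5.79 (-1.43 ± 0.17), and the sulfotransferase gene Sult1a1 fell by 1.36 (± 0.15). Members of the Cyp2c, Ces1, Gstm and Ugt1a families are close in sequence, and how the authors' counting split their shared reads is not given, so single members are uncertain.

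**Figure D4:**
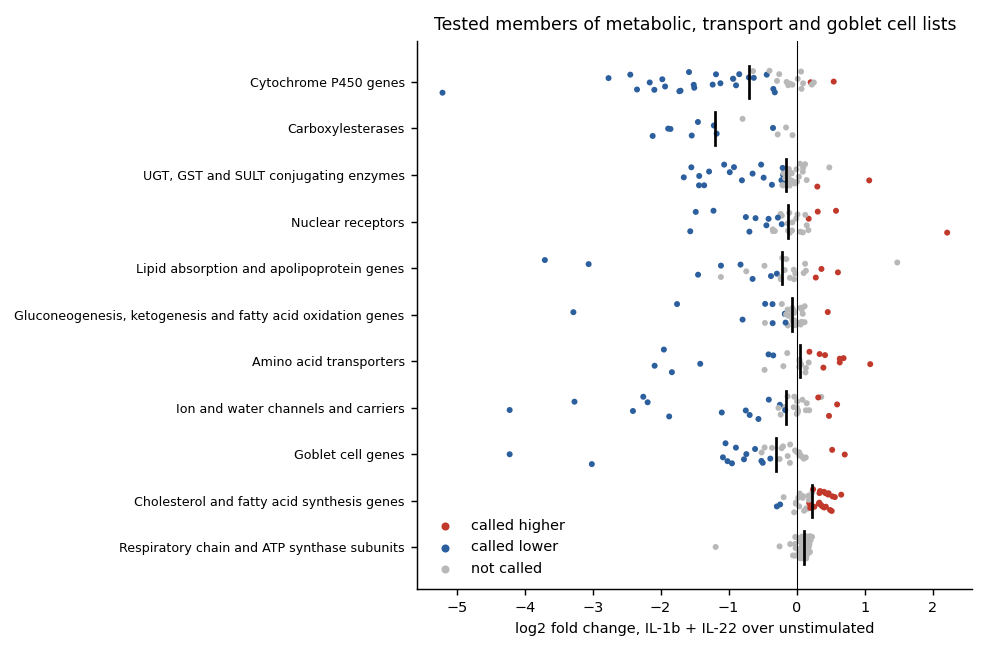
Log2 fold change with IL-1b + IL-22 over unstimulated (horizontal axis) for each tested member of 11 lists, with members called higher in red, called lower in blue and the rest in grey, and a black bar at each list's median. Carboxylesterases (median -1.20) and P450 genes (-0.70) are shifted to the left, cholesterol and fatty acid synthesis genes (0.23) to the right, and the respiratory chain sits near 0.

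Among lipid genes, those of absorption and apolipoproteins fell more often than they rose, and those of synthesis rose more often than they fell. Of 27 lipid absorption and apolipoprotein genes, 8 fell and 3 rose (median -0.21). Apoa1, the main protein of high-density lipoprotein, stood at 21.6, 5.46 and 41.7 CPM against 1.82, 3.33 and 3.0 (-3.06 ± 0.69, adjusted p = 0.00470), with a wide unstimulated spread, and its value was -2.31 without unstimulated replicate 3. Apoa4 fell from 6.95, 3.82 and 16.9 to 0.202, 0.392 and 1.5 (-3.70 ± 0.84, with values of -2.94 without unstimulated replicate 3 and -4.83 without stimulated replicate 3). The sterol exporter gene Abcg8 fell by 1.11 (± 0.28), and Slc51b, a subunit of the basolateral bile acid exporter, rose by 0.61 ± 0.08. Of 39 cholesterol and fatty acid synthesis genes, 22 rose and 2 fell (median 0.23), with malic enzyme Me1 at 0.66 ± 0.11, the mevalonate pathway gene Mvd at 0.56 ± 0.07, Hsd17b7 at 0.53 ± 0.06 and Lss, which closes the sterol ring, at 0.52 ± 0.10, while Acly, which supplies acetyl-CoA, fell by 0.24 (± 0.06).

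Among the 24 amino acid transporter genes tested, 8 rose and 6 fell (median 0.06), and the falls were the larger. Slc6a19, the neutral amino acid carrier of the brush border, fell from 75.7, 81.7 and 109 CPM to 13.1, 35.1 and 13.7 (-2.09 ± 0.33, and -2.72 without stimulated replicate 2), Slc7a8 from 34.0, 35.5 and 26.6 to 11.3, 7.64 and 7.94 (-1.83 ± 0.34) and Slc43a2 by 1.42 (± 0.25). The cystine carrier gene Slc7a11 rose from 57.2, 45.6 and 46.1 to 121, 98.4 and 96.8 (1.08 ± 0.12) and the large neutral amino acid carrier gene Slc7a5 by 0.69 ± 0.11. Of 26 metal handling genes, 5 rose and 6 fell (median -0.03), with 3 rises without unstimulated replicate 2 and 3 falls without stimulated replicate 3. The iron importer gene Slc11a2 fell from 599, 608 and 620 to 400, 230 and 366 (-0.88 ± 0.15), and the metalloreductase gene Steap1 rose from 6.06, 4.37 and 8.15 to 11.7, 16.1 and 14.8 (1.20 ± 0.25). Of 31 glycolysis and hypoxia genes, 10 rose and 1 fell (median 0.14), with 5 rises after removal of the count-per-base trend, 6 without unstimulated replicate 1, and 5 without unstimulated replicate 2 or stimulated replicate 3. Pfkfb3, which makes the main activator of phosphofructokinase, rose from 119, 88.0 and 86.9 to 238, 229 and 222 (1.23 ± 0.13), Hk2 by 0.49 ± 0.06 and Hif1a by 0.34 ± 0.06, while the phosphofructokinase gene Pfkm fell by 0.89 (± 0.16).

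Respiratory chain and ribosome lists, whose abundant members sit where counts level off, had few calls. Of 76 respiratory chain and ATP synthase genes, 0 passed the edgeR test, 0 passed that of DESeq2, and 11 were higher and 2 lower at an unadjusted p under 0.05 (median 0.10), with 5 higher without stimulated replicate 2 and up to 3 lower under other alternatives. Of 80 cytosolic ribosomal protein genes 3 rose and 1 fell (median 0.15), but 17 rose without stimulated replicate 2 and 7 with another expression filter. Of 37 ribosome biogenesis genes 3 rose and 1 fell (median 0.07), with 0 of either without unstimulated replicate 2 or stimulated replicate 3, and 1 higher and 4 lower with total counts. Of 20 heat-shock and dissociation genes, which can mark handling, 9 rose and 1 fell (median 0.19), with 5 and 4 rises without unstimulated replicate 2 and stimulated replicate 3.

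Many marker genes of cells other than epithelium had few or no counts. Over the 6 libraries, 10 or fewer counts were found for 18 of 31 immune and 15 of 20 fibroblast and muscle markers. The same held for 7 of 14 endothelial and 8 of 15 neural and glial markers. Of 31 immune marker genes 7 had no count in the 6 libraries, among them Tyrobp, Cd8a and Adgre1, and the summed level was 199.7 to 223.6 CPM in unstimulated libraries and 268.9 to 301.4 with both cytokines. That sum over 31 genes was of a similar size to Epcam alone (261 to 295 CPM). Cd14, which epithelium can also express, was part of the sum and rose from 62.0, 63.8 and 73.0 to 110, 93.9 and 109. Not all markers behind the rest of it are named here. The pan-leukocyte gene Ptprc, which was not called, had 0, 2 and 2 counts against 2, 9 and 6. Laptm5, another leukocyte gene, had 5, 1 and 4 counts against 2, 14 and 25, with the most in stimulated replicate 3. Of 9 immune genes tested 4 rose and 2 fell, the rises including the macrophage and lysosome gene Cd68 (1.59) and the B cell gene Ms4a1 (2.50, not called without unstimulated replicate 1 or 3 or stimulated replicate 2 or 3, adjusted p from 0.0511 to 0.0645, and 3.40 without unstimulated replicate 2), and the falls the mast cell receptor gene Kit (-1.63) and Cd83. Fibroblast and muscle markers summed to 79.7 to 85.2 CPM unstimulated and 45.3 to 65.8 with both cytokines, with Col3a1 and Lum at 0, and of 4 tested 1 fell, Pdgfrb, from 44.7, 43.6 and 31.1 to 14.9, 12.9 and 12.0. Endothelial markers summed to 19.6 to 28.0 and 12.4 to 21.4, with Cdh5 and Kdr at 0, and 3 of 5 tested fell, Pecam1, Vwf and Prox1, of which none was called without stimulated replicate 3. Neural and glial markers summed to 21.6 to 25.2 and 20.2 to 24.2, with Sox10 at 0, and of 4 tested 1 rose and 1 fell. The part of these sums in the epithelial results was not tested. Of 18 epithelial identity genes 3 rose (16.7%) and 2 fell (11.1%), near the shares of all genes (median 0.07). Epcam, at 0.10 ± 0.06, was not called.

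Set beside the single cytokines, the double stimulation differed from IL-22 alone at few genes and from IL-1b alone at many. Against IL-22 alone 11 genes differed (0.0786% of those tested, 9 higher and 2 lower, with 1440 at an unadjusted p under 0.05), and against IL-1b alone 3682 (26.3%). IL-1b replicate 1 stood apart in leukocyte transcripts, with 104 counts of Ptprc and 130 of Laptm5 against 0 to 20 and 1 to 32 in the other libraries, and without it 2827 genes differed from IL-1b alone. That library also enters the shared spread, and with only the 6 libraries compared 3399 genes differed from unstimulated cultures. Each single cytokine is compared with the same unstimulated libraries as the double stimulation, so their lists are not independent. In all, IL-22 alone raised 1661 genes and lowered 1483, and IL-1b alone raised 10 and lowered 0. Of the 1920 genes that rose with both cytokines, 1315 also rose with IL-22 alone, 10 with IL-1b alone and 603 with neither, and of the 1863 that fell, 1143 fell with IL-22 alone, 0 with IL-1b alone and 720 with neither. Here "neither" means only that a gene was not called with a single cytokine, and it does not show a need for both. Tested directly, 9 of the genes that rose and 2 of those that fell differed from IL-22 alone. The interaction term, which asks whether the double stimulation departs from the sum of the single log2 changes, called 0 genes (0% of those tested), with 705 at an unadjusted p under 0.05 4 calls by DESeq2, and 1 call by edgeR without IL-1b replicate 1.

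Lcn2, S100a9 and Ccl20 were called against IL-22 alone under every alternative that tested them. Lcn2 stood at 0.126 ± 0.219 CPM (SD, n = 3) unstimulated, 4.19 ± 1.27 with IL-1b, 1.09 ± 0.308 with IL-22 and 41.1 ± 8.50 with both, a difference of 5.20 ± 0.32 from IL-22 alone (edgeR adjusted p = 2.55e-06). S100a9 stood at 0.0594 ± 0.103, 0.792 ± 0.796, 0.285 ± 0.248 and 11 ± 5.0 in the same order, a difference of 5.21 ± 0.65. Ccl20, the chemokine gene for cells with CCR6, had another pattern. It stood at 14.8 ± 1.83 unstimulated, 48.5 ± 3.67 with IL-1b, 4.21 ± 1.75 with IL-22 and 22.4 ± 5.66 with both, above IL-22 alone by 2.38 ± 0.25 (adjusted p = 0.00118) and below IL-1b alone by -1.12 (adjusted p = 0.000530), and its rise over unstimulated cultures was marginal (0.59 ± 0.20, adjusted p = 0.0430, lost in 9 of the alternatives). The rest of the higher genes were Mmp7 (2.53 ± 0.41), Prl2a1 (1.78 ± 0.28), Clca3a1 (1.77 ± 0.28), C3 (1.25 ± 0.17), Clca3b (1.12 ± 0.18) and Nos2 (1.07 ± 0.18), and the lower ones were the pseudogene 9130208D14Rik (-0.98 ± 0.15) and Cyp2d13 (-0.44 ± 0.07). These 8 lost their calls under at least 3 alternatives each, the omission of stimulated replicate 3 among them, and from 3 to 72 genes differed from IL-22 alone when 1 library was left out (72 without IL-22 replicate 1, 28 without replicate 1 of the double stimulation and 3 without its replicate 3). Nos2 and C3 were at similar levels with each single cytokine (120 ± 11.6 and 112 ± 31.5 CPM for Nos2 with IL-1b and IL-22) and reached 235 ± 23.4 and 188 ± 5.66 with both.

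**Figure D5:**
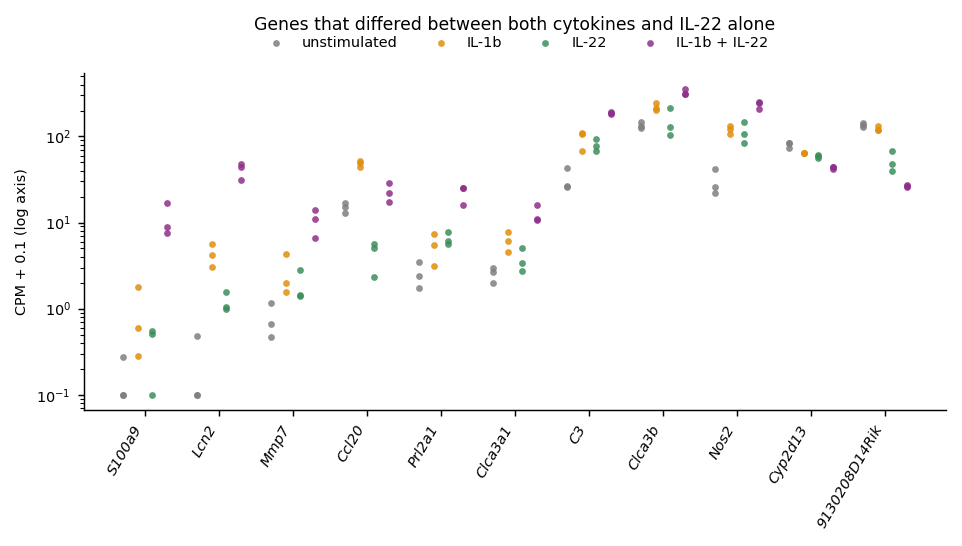
CPM + 0.1 on a log axis in all 12 libraries, 3 points per group, for the 11 genes that differed between IL-1b + IL-22 and IL-22 alone. Lcn2 and S100a9 are highest with both cytokines, and Ccl20 with both lies between IL-22 alone and IL-1b alone.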

How the data were processed

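Poly(A) RNA of colonoids was sequenced from a stranded library kit, per the labels' protocols. The deposited values are raw counts per gene symbol, one column per library, made by the authors on genome build mm10, according to the submitters' processing notes; which aligner and counter they used, and with which strand setting, is not given in the sources used here. All 12 columns were matched to libraries by name and used as deposited. Gene positions and exon overlaps came from GENCODE M21 on the same build, and upstream sequence from RefSeq.

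Computed here, with edgeR 4.0.16 in R 4.3.3: the default expression filter, TMM scaling (factors 0.957 to 1.04), and a quasi-likelihood test with 1 mean per group over 12 libraries (8 residual degrees of freedom) and Benjamini-Hochberg adjustment over 13987 genes, called at an adjusted p under 0.05. The 21882 symbols removed by the filter include 11498 with no count. CPM are counts scaled to a TMM-adjusted library total of 1000000. Ratios of counts carry exact 95% intervals, which cover counting error only, and a floor of 3 counts over the group where a group had none. DESeq2 1.42.0, other scalings and filters, the 6 libraries alone, a replicate block, a fit with the count-per-base trend taken out, and the omission of each library were tried as alternatives. The labels do not pair same-numbered libraries, and in the main fit they were not treated as pairs. Their deviations within the groups had r of -0.186, 0.0842 and 0.179 across genes, against -0.235 to 0.184 for libraries of unlike number. Whether they share animals or batches was not tested.

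The comparison, the 46 gene lists (1560 genes, 1255 tested) and the named genes were chosen with earlier results of these data known. Genes were named by rule: the 12 largest called changes in each direction among genes of at least 1 CPM whose groups did not overlap, up to 4 called members of each list in each direction, up to 5 genes in each direction of the comparisons with the single cytokines, and a fixed set of pathway and lineage genes. Clca3b, 9130208D14Rik, Duox2, Scnn1b, Scnn1g, Tnf, Retnlb, Hspa5, Ptprc and the genes in the other observations were added after their values were seen. Of 279 genes named by these rules, 78 share exon bases with another gene model, so reads of the pair may have been mixed; those described are Abcg8, Apoa4, Avil, Bcl2, Bcl2l15, Cars, Ccnd1, Ccnd2, Cdkl1, Cish, Clca3a1, Clca3a2, Cxcl10, Cxcl11, Cyp2f2, Duoxa1, Duoxa2, Dusp1, Hif1a, Icam1, Igtp, Ikbkg, Il10rb, Il18bp, Il1rap, Il4ra, Irak4, Irgm2, Jak3, Kcne3, Lss, Me1, Mmp7, Myd88, Pdia6, Pfkm, Prelp, Prox1, Slc11a2, Slc16a9, Slc43a2, Slc51b, St6gal1, Stat3, Stat5a, Stat6, Sult1a1, Tap1 and Tnfaip2. Some genes met by these rules are not reported here.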

Additional observations from a re-analysis of the deposited data

How the results depend on the processing

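The 3783 genes called against unstimulated cultures became 3121 with DESeq2, 3456 with the replicate block and 2648 to 3662 without 1 library, and 2113 of 8707 where only genes under 0.1 counts per exon base were tested, a restriction that by construction tests fewer genes. No called gene among those named reversed its direction under the alternatives run. Of those not called, Lgr5 (-1.80 to 0.38), Car1, Epcam, Mki67 and Il10rb took both signs. The 11 genes called against IL-22 alone became 87 with DESeq2, 336 without an expression filter, 6 with only the 6 libraries compared, 7 with the replicate block and 3 to 72 without 1 library. Against IL-1b alone the 3682 calls became 1934 in the low-density genes. The interaction, with 0 calls, had 4 with DESeq2, 50 without a filter and 0 to 1 without 1 library. The causes of these shifts were not tested. The labels do not say whether equal replicate numbers are pairs, so what the blocked counts mean for weaker effects cannot be told. Depth limits genes near 3 counts, where ratios have wide intervals, and the levelling off of counts limits abundant genes.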

Other observations

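Several listed genes stayed under the expression filter and were not tested, yet their counts differed between the groups. They were chosen after their counts were seen, by a minimum summed count and a minimum fold difference between the groups. Their differences therefore follow from that choice. The CXCR2 ligand gene Cxcl3 had 1, 0 and 0 counts in unstimulated libraries and 7, 10 and 28 with both cytokines, a ratio of 50.1 (95% counting interval 8.54 to 2022). Timp1, an inhibitor of metalloproteinases, had 1, 0 and 0 against 7, 8 and 10, a ratio of 27.8 (4.55 to 1142). Both genes stood higher in every stimulated library. Ccl7, a monocyte chemokine gene, had 1, 1 and 0 against 4, 2 and 19, so 1 library held most of its counts. The endothelial receptor gene Tie1 had no count against 2, 8 and 7, at least 6.31-fold higher against the floor of 3 counts over the group.

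Lower counts were seen for the P450 gene Cyp2a22, with 6, 7 and 2 against 0 in each stimulated library, at least 4.49-fold lower, and for Slc27a2, a fatty acid transporter gene, with 17, 21 and 8 against 3, 2 and 1, a ratio of 0.145 (0.0507 to 0.341). The carboxylesterase gene Ces3b had 7, 9 and 9 against 3, 1 and 0, and A4gnt, which caps gastric-type mucin glycans, had 8, 9 and 4 against 0, 1 and 3. In each of these genes the groups did not overlap, which the choice by fold difference favours.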
